A study of Mus musculus with 6 samples.

Results

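The genes described here are the laminin chains, the nidogens and the integrin subunits, measured in salivary glands of mouse embryos that were kept in culture with TGF-β1 or untreated. Members were taken by symbol from the platform annotation of the array, as every measured laminin α, β or γ chain, nidogen 1 or 2, and integrin α or β subunit. This gave 36 of the 19505 genes compared, each with 1 probe set: 10 laminin chains, 2 nidogens, 16 integrin α subunits and 8 integrin β subunits. Some chains and subunits of these families were not analysed here.

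The TGF-β1 group had 3 arrays (TGF-β1 1 to 3) of glands exposed to TGF-β1, a secreted growth factor, and the control group had 3 arrays (controls 1 to 3) of glands given nothing. In both groups the glands came from embryos at a stage labelled T13, were cultured for 72 hours, and gave total RNA of which 6 µg was labelled for Affymetrix arrays. The mouse strain, the type of salivary gland, the dose, and whether the replicates were separate cultures or animals are not stated in the labels, so p-values reflect only how these arrays vary, possibly for technical reasons. All levels below are the deposited log2 values, and a difference is TGF-β1 minus control on that scale. A change is read only from the same gene on different arrays, since the brightness of different probe sets is not comparable as expression. Where genes are sorted by brightness or set against an array median or quartile, only the signal is described.

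Laminins are cross-shaped trimers of an α, a β and a γ chain that self-assemble into the sheet under an epithelium, and nidogens are secreted linkers that tie that sheet to the collagen IV network of the basement membrane. Integrins are receptors of an α and a β subunit that span the cell membrane and bind laminins, collagens, fibronectin or proteins of other cells. In branching glands, the basement membrane surrounds the epithelial buds, and laminin chains and their integrin receptors are known to take part in bud growth and clefting. Some αv integrins also release TGF-β from its latent complex.

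Control 3 did not resemble the other arrays. Its correlation with them over all genes was 0.550 to 0.601, while all other pairs correlated at 0.948 to 0.990, and the mean of 8 measured genes that every cell uses was 7.35 on it, where the TGF-β1 arrays were at 10.79 to 11.09 and controls 1 and 2 at 10.78 and 10.72. The glands of both groups carried epithelial markers: the mean of 10 epithelial genes was 10.45 to 10.81 on the TGF-β1 arrays, against 9.85 and 10.26 on controls 2 and 1 and 7.32 on control 3. The mean of 8 secretory markers, all of which were higher in the TGF-β1 group, was 9.97 to 10.80 on the TGF-β1 arrays and 5.97 to 7.10 on the 3 controls.

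Among the 36 members the departure of control 3 varied with how bright the gene was elsewhere. Control 3 lay below all other arrays for 18 members and above all of them for 15, against 32.4% and 51.9% of all genes. Of the 10 members whose mean over the other 5 arrays was 9 or more, 9 were lowest on control 3, Itgav being the exception. Of the 8 members whose mean was under 6, none was lowest there and 6 were highest. Lamb1, the β1 chain of the widespread laminins, was at 4.43 on control 3 and at 8.98 and 9.34 on controls 1 and 2. Itga9, a subunit that binds tenascin C and other matrix proteins, was at 5.95 on control 3 and at 10.80 and 10.97 on controls 1 and 2. Itgb2, the β subunit of leukocyte integrins, was in contrast at 7.30 on control 3 and at 5.42 and 5.19 on controls 1 and 2. For most members high genes were thus low and low genes high on control 3.

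**Figure D1:**
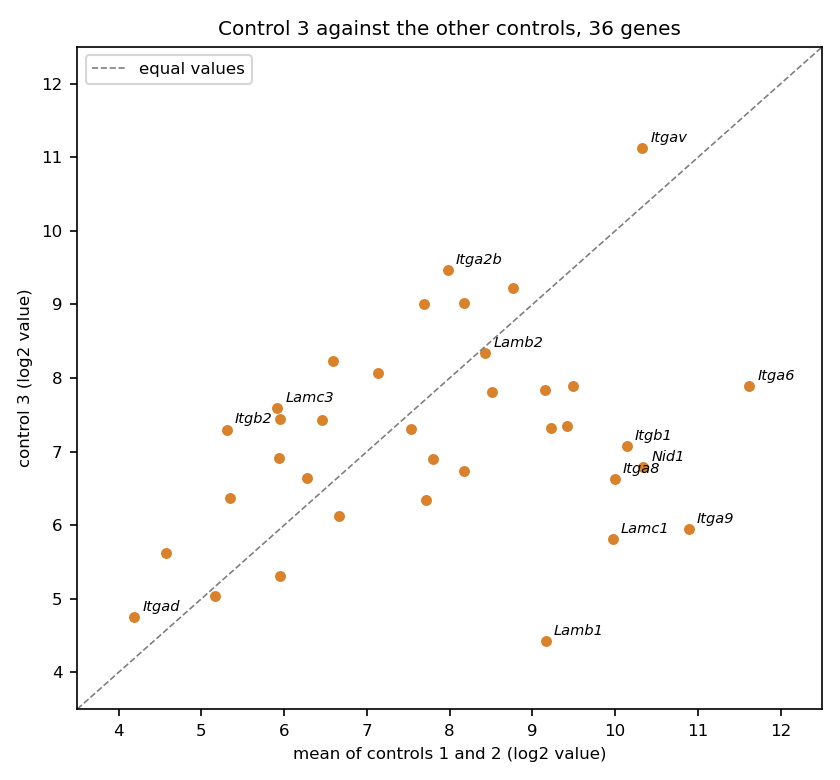
Each point is 1 of the 36 genes, with the mean of controls 1 and 2 on the x axis and control 3 on the y axis, both as log2 values; the dashed line marks equal values. Of the genes at 9 or more on the x axis all but Itgav lie below the line, and of those under 6 all but Lamb3 and Itgax lie above it.

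The groups were therefore compared with limma, using weights that limma's arrayWeights estimated for each array from the agreement of its values with the group over all genes. Control 3 received a weight of 0.0338 and TGF-β1 3 one of 0.398, against 1.65 and 4.52 for controls 1 and 2 and 4.29 and 2.33 for TGF-β1 1 and 2. The control level in this fit is thus mainly that of control 2. The words rose and fell are used of genes whose adjusted p in this fit (Benjamini-Hochberg over 19505 genes) was under 0.05.

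In the array-weighted fit 3 of the 36 members passed, or 8.33%, where 6.88% of all genes passed. Lama3 rose, Itga5 and Itga9 fell, and 33 members did not pass. The share is near that of all genes, so laminins, nidogens and integrins were not set apart by how many of them were called. The median difference of the members was -0.04, against 0.01 for all genes, and 17 members had a positive and 19 a negative difference. At an unadjusted p under 0.05 there were 12 members (33.3%), against 20.5% of all genes.

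These calls depended on the arrays and weights used. With equal weights on all 6 arrays limma called 0 of the 36 members and 0.0% of all genes, with 0 members and 1.99% of all genes at an unadjusted p under 0.05. With equal weights and no control 3 it called 0 members and 0.0% of all genes, with 4 members and 7.62% of all genes at an unadjusted p under 0.05. Without control 3 and TGF-β1 3, where the remaining arrays had equal weights, it called 0 members and 2.59% of all genes, with 5 members and 16.9% of all genes at an unadjusted p under 0.05. Without control 3 but with array weights, Itga5 and Itga9 passed, beside 2.79% of all genes. Leaving out any other array ended all 3 calls. Of all 19505 genes, 0 passed without control 1 and 0 without control 2. Higher and lower genes numbered 8 and 0 without TGF-β1 1, 12 and 0 without TGF-β1 2, and 175 and 200 without TGF-β1 3. The loss of calls was thus not particular to the 3 members. Over these 5 fits Itga5 differed by -0.81 to -0.16, Itga9 by -1.48 to 1.32 and Lama3 by 0.20 to 1.21. The positive values of Itga9 were those without control 1 (1.24) or control 2 (1.32). Weights were estimated anew in each fit. Without control 1 or control 2, control 3 and the remaining control deviate equally from their mean and get equal weight. The loss of calls there cannot show dependence on the array left out, as control 3 counts in full. With a TGF-β1 array left out, the control level was mainly that of control 1, no longer control 2. With 1 array left out the sign of the difference turned for 6 to 21 of the 36 members. The differences below are array-weighted values on 6 arrays unless another fit is named.

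**Figure D2:**
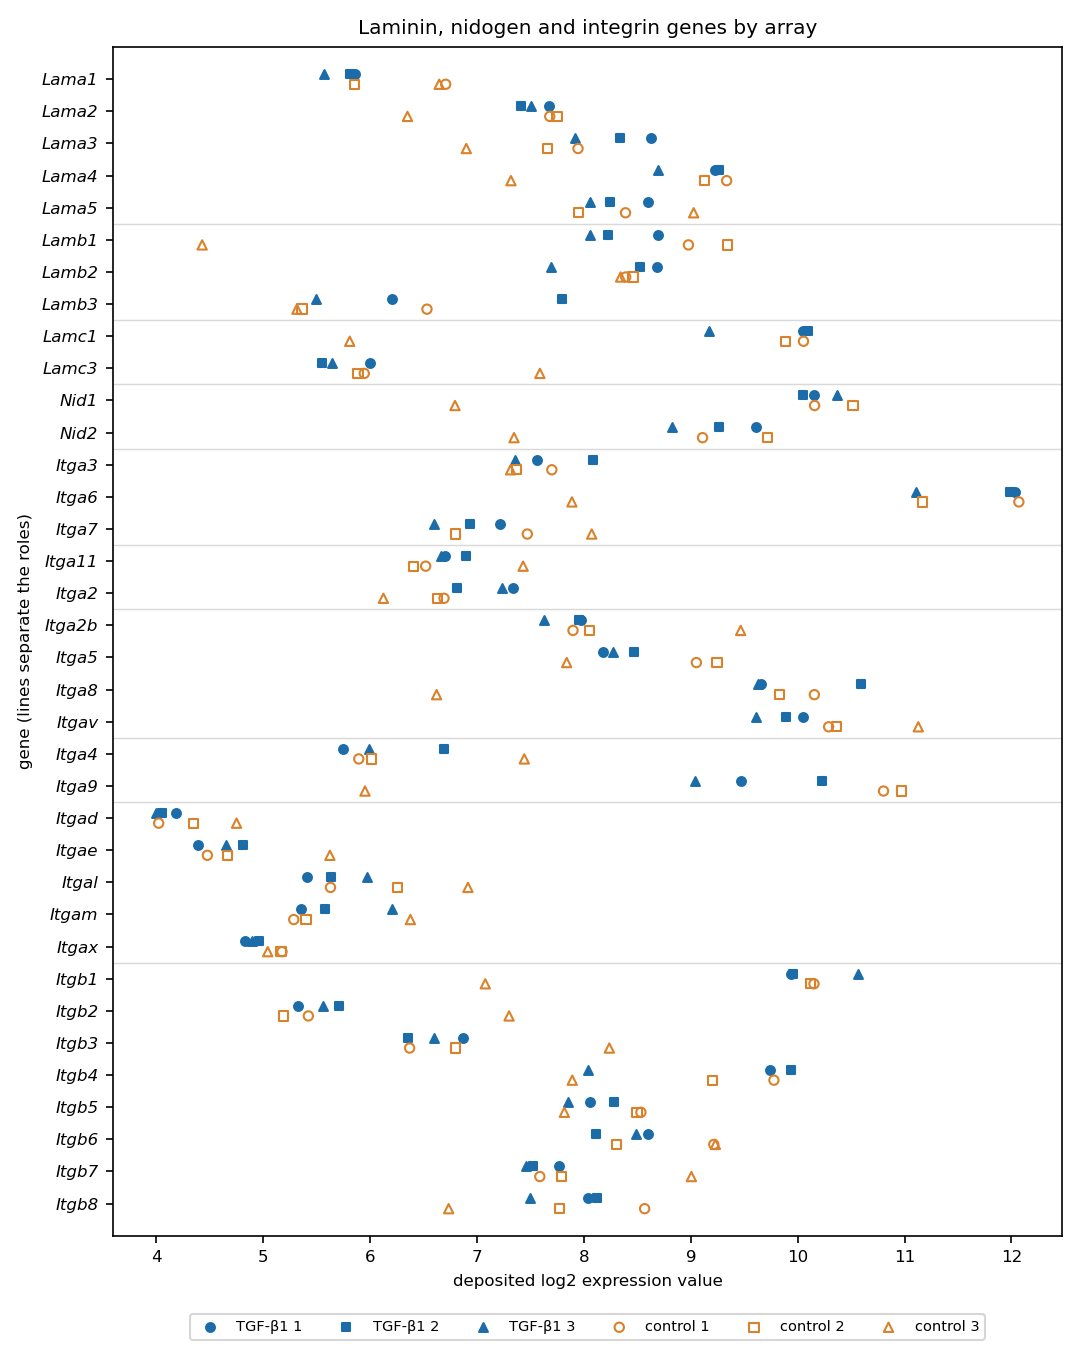
Log2 values of the 36 genes on each array, with the TGF-β1 arrays as filled blue symbols above and the controls as open orange symbols below in each row; grey lines separate the roles, from laminin α chains to integrin β subunits. For most genes the filled symbols overlap the open circle and square of controls 1 and 2, and the open triangle of control 3 lies apart.

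Among the laminin α chains, which carry the domains that integrins bind, 1 of 5 rose, 0 fell and 4 did not pass. Lama3, the α3 chain of the epithelial laminin that anchors hemidesmosomes, was at 8.63, 8.34 and 7.91 on TGF-β1 1 to 3, against 7.94, 7.66 and 6.90 on controls 1 to 3. TGF-β1 3 lay just under control 1, so the groups touched. Lama3 rose by 0.76 ± 0.17 (SE, adjusted p = 0.0179). It did not pass without control 3 (0.70, adjusted p = 0.0882), nor with TGF-β1 3 left out as well and equal weights (0.68, adjusted p = 0.102).

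Lama1, the α1 chain of early embryonic basement membranes, was at 5.86, 5.81 and 5.57 on the TGF-β1 arrays, against 6.71, 5.85 and 6.65 on the controls. Control 2 was level with the TGF-β1 arrays and the other controls were higher, and the difference of -0.26 ± 0.20 did not pass (adjusted p = 0.554). The difference of Lama1 was -1.01 without TGF-β1 1, -0.98 without TGF-β1 2, -0.87 without TGF-β1 3, where it passed (adjusted p = 0.0307), and -0.68 with median centring. In the fits without a TGF-β1 array the control level was mainly that of control 1. The pass thus rests largely on that control, and control 2 does not share its high value. Lama5, the α5 chain of most mature epithelial basement membranes, differed by 0.37 ± 0.18 (adjusted p = 0.262). Lama2, the α2 chain known from muscle and nerve, was at 7.67, 7.41 and 7.51 on TGF-β1 1 to 3, against 7.68, 7.75 and 6.35 on controls 1 to 3, and differed by -0.14 ± 0.15. Lama4, the α4 chain of vessel and mesenchymal laminins, was at 9.23, 9.26 and 8.69, against 9.33, 9.13 and 7.32 on the controls, and differed by 0.04, with a 95% interval of -0.31 to 0.38.

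Of the 3 laminin β chains and 2 γ chains measured, none passed. Lamb1 was at 8.69, 8.23 and 8.05 on TGF-β1 1 to 3, against 8.98, 9.34 and 4.43 on controls 1 to 3. All TGF-β1 arrays were below controls 1 and 2, by an array-weighted difference of -0.72 ± 0.23 (adjusted p = 0.0927). The value of control 3 alone turned the difference to 0.74 with equal weights. Lamb3, the β3 chain that pairs with α3, was at 6.20, 7.79 and 5.49 on TGF-β1 1 to 3, against 6.53, 5.36 and 5.31 on controls 1 to 3. TGF-β1 2 was high and TGF-β1 3 low, with control 1 above both of the other TGF-β1 arrays, and the difference of 1.02 ± 0.42 did not pass (adjusted p = 0.198). Lamb3 differed by -0.65 without TGF-β1 2 (95% interval -1.30 to -0.01) and by 0.14 without TGF-β1 1. In both fits the control level was mainly that of control 1, so these values do not single out a TGF-β1 array. Lamb2, the β2 chain of kidney and synaptic laminins, differed by 0.13 ± 0.16. Lamc1, the γ1 chain shared by most laminins, was at 10.05, 10.10 and 9.17 on the TGF-β1 arrays, against 10.05, 9.89 and 5.81 on the controls, and differed by 0.11 (95% interval -0.34 to 0.55). Lamc3, the γ3 chain, differed by -0.08 and lay below the array median on each of the 5 arrays other than control 3.

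The nidogens did not pass. Nid1 was at 10.15, 10.05 and 10.36 on the TGF-β1 arrays, against 10.16, 10.52 and 6.79 on the controls, TGF-β1 3 lying between controls 1 and 2 and the other TGF-β1 arrays at or just under control 1. Nid1 differed by -0.27 and Nid2 by -0.10, with 95% intervals of -0.68 to 0.13 and -0.55 to 0.36.

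Of the integrin α subunits that bind laminin, Itga3, Itga6 and Itga7 were measured, and none of them passed. Itga6, which forms the hemidesmosome receptor with β4, was at 12.04, 11.99 and 11.11 on TGF-β1 1 to 3, against 12.07, 11.17 and 7.89 on controls 1 to 3. The TGF-β1 arrays spanned the same range as controls 1 and 2, and the difference of 0.58 ± 0.25 (adjusted p = 0.218) was 0.09 without control 3 at equal weights. Itga3, the partner of β1 in epithelial adhesion to laminin, differed by 0.27 ± 0.18, and Itga7, a subunit best known from muscle, by 0.10 ± 0.20.

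Itgb4, the β subunit of hemidesmosomes, was at 9.74, 9.94 and 8.04 on TGF-β1 1 to 3, against 9.78, 9.21 and 7.89 on controls 1 to 3. TGF-β1 3 was low for all 4 hemidesmosome chains measured, being below TGF-β1 1 and 2 for Lama3, Lamb3, Itga6 and Itgb4, by 0.57, 1.51, 0.91 and 1.80 in that order relative to the mean of those arrays. Control 1 was above control 2 for the same 4 chains, by 0.29, 1.17, 0.90 and 0.57. Neither order is particular to these chains: TGF-β1 3 was the lowest TGF-β1 array for 22 of the 36 members and 43.1% of all genes, and control 1 was above control 2 for 20 members and 47.6% of all genes. Dst, which encodes the plakin that ties hemidesmosomes to keratin and is no member here, was at 4.55, 4.66 and 4.57 on the TGF-β1 arrays, against 5.51, 5.61 and 4.66 on the controls. Dst fell by 0.99 ± 0.14 (adjusted p = 0.0018), also with control 3 and TGF-β1 3 left out and equal weights (adjusted p = 0.0274). Its signal was low: on the TGF-β1 arrays it lay below their lower quartiles of 5.11 to 5.15, and on controls 1 and 2 above theirs. Col17a1, the hemidesmosome collagen, was at 5.78 to 6.51 on the TGF-β1 arrays and at 6.05 to 6.85 on the controls.

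Markers of epithelium and of basal and myoepithelial cells differed between the same arrays. The mean of the 10 epithelial genes was 10.26 on control 1 and 9.85 on control 2, and of these genes Epcam and Cldn3 rose with array weights. The mean of 8 basal and myoepithelial genes was 8.69, 8.28 and 9.51 on TGF-β1 1 to 3, against 8.90, 8.42 and 7.21 on controls 1 to 3, with Acta2 and Cnn1 risen and a median difference of -0.31 over the list. Acta2 was at 12.01, 11.73 and 11.53 on TGF-β1 1 to 3, against 11.68, 9.95 and 7.66 on controls 1 to 3. Cnn1 was at 9.05, 7.88 and 10.27, against 8.06, 6.65 and 8.06 on the controls. For both genes control 1 lay among the TGF-β1 arrays and control 2 below them. The genes of this list went different ways on TGF-β1 3. Krt17, a keratin of basal cells, was at 6.88, 5.90 and 10.96 on TGF-β1 1 to 3, against 8.81, 8.38 and 6.79 on controls 1 to 3, and Krt5, Krt14 and Krt15 were likewise highest on TGF-β1 3. Trp63, the transcription factor of basal cells, was at 10.44, 10.52 and 9.19 on TGF-β1 1 to 3, against 10.96, 10.55 and 6.91 on controls 1 to 3. None of these markers was below the lower quartile of its array on all 5 arrays other than control 3. In whole glands fewer cells of a type and less RNA per cell cannot be told apart, and the part of these markers in the laminin and integrin values was not tested.

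**Figure D3:**
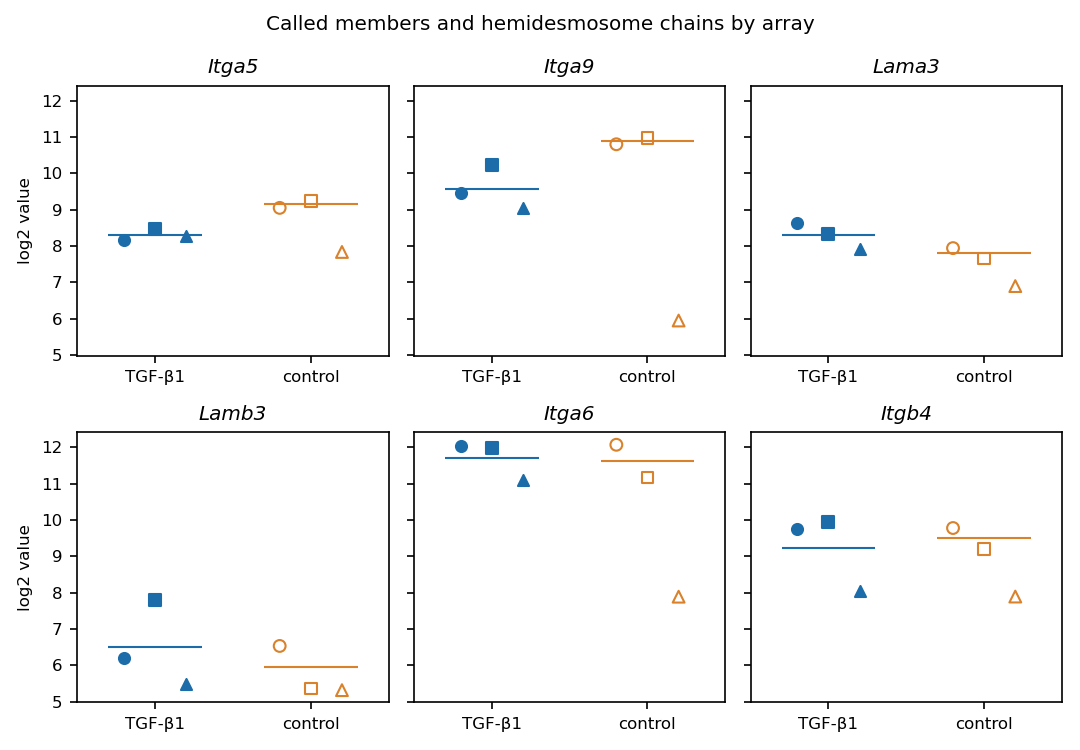
Log2 values of Itga5, Itga9 and Lama3, which passed in the array-weighted fit, and of Lamb3, Itga6 and Itgb4, which did not; circles, squares and triangles are replicates 1, 2 and 3. The lines are the mean of the 3 TGF-β1 arrays and the mean of controls 1 and 2, and control 3 is drawn but is not in the line. Itga5 and Itga9 lie below controls 1 and 2 on every TGF-β1 array.

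The integrin α subunits that recognise the RGD sequence of fibronectin and related ligands held 1 fallen member of 4. Itga5, which forms the main fibronectin receptor with β1, was at 8.18, 8.47 and 8.27 on TGF-β1 1 to 3, against 9.05, 9.24 and 7.84 on controls 1 to 3. The TGF-β1 arrays lay together and below controls 1 and 2, and above control 3. Itga5 fell by 0.90 ± 0.15 (SE, adjusted p = 0.0050), and its difference was -0.87 without control 3 (adjusted p = 0.0312). It did not pass with TGF-β1 3 left out as well and equal weights (-0.82, adjusted p = 0.0550). With equal weights it differed by -0.84 without control 3 (adjusted p = 0.294) and by -0.40 on all 6 arrays (adjusted p = 0.776).

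Itgav, the αv subunit that takes part in TGF-β release, was at 10.05, 9.89 and 9.61 on TGF-β1 1 to 3, against 10.29, 10.36 and 11.13 on controls 1 to 3. Every TGF-β1 array was below every control, but the difference of -0.38 ± 0.14 did not pass (adjusted p = 0.151). Itgb5, a β subunit that pairs with αv, was at 8.06, 8.28 and 7.85, against 8.53, 8.50 and 7.82 on the controls, again below controls 1 and 2 throughout, with a difference of -0.38 ± 0.14 (adjusted p = 0.147). The β subunits known for TGF-β release did not pass: Itgb6, an epithelial subunit, differed by -0.12 (95% interval -0.63 to 0.39) and Itgb8 by 0.06 (-0.39 to 0.51). Both values moved when a TGF-β1 array was left out, none of them passing. Itgb6 differed by -0.91, -0.67 and -0.86 without TGF-β1 1, 2 or 3, and Itgb8 by -0.73, -0.77 and -0.45. In these fits the control level was mainly that of control 1 and no longer that of control 2. Control 1 was above control 2 for both genes, so the values show no dependence on a particular TGF-β1 array. Itgb6 was at 9.21 on control 1 and 8.31 on control 2, so the controls differed from each other by more than the TGF-β1 arrays, which were at 8.11, 8.48 and 8.60. Itga8, a subunit of mesenchymal cells that binds nephronectin, was at 9.65, 10.59 and 9.63, against 10.16, 9.83 and 6.62 on the controls, and differed by 0.06 ± 0.26.

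Itga9 was the member with the largest fall. It was at 9.47, 10.23 and 9.04 on TGF-β1 1 to 3, against 10.80, 10.97 and 5.95 on controls 1 to 3, so that all TGF-β1 arrays were below controls 1 and 2 and far above control 3. Itga9 fell by 1.20 ± 0.26 (adjusted p = 0.0179), and its difference was -1.20 without control 3 (adjusted p = 0.0479). It did not pass with TGF-β1 3 left out as well and equal weights (-1.04, adjusted p = 0.0851). With equal weights on all 6 arrays control 3 turned the difference to 0.34 (adjusted p = 0.909). Itga4, the related subunit that binds fibronectin and VCAM1, differed by 0.08 ± 0.24. Beside these falls, the mean of 9 mesenchymal genes was 8.91 to 9.37 on the TGF-β1 arrays, against 9.17 and 9.59 on controls 1 and 2, with Twist1 and Prrx1 fallen. Twist1 was at 9.11 on TGF-β1 3, between 8.80 and 9.33 on controls 1 and 2. The part of the mesenchymal list in the integrin values was not tested.

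Of the collagen-binding α subunits measured, Itga2 was the only member whose TGF-β1 arrays were all above all 3 controls. It was at 7.33, 6.81 and 7.24 on TGF-β1 1 to 3, against 6.69, 6.63 and 6.12 on controls 1 to 3, a difference of 0.51 ± 0.17 that did not pass (adjusted p = 0.0989). Itga11, a fibroblast subunit that binds collagen I, was at 6.70, 6.90 and 6.66, against 6.52, 6.40 and 7.43 on the controls, and differed by 0.32 ± 0.14 (adjusted p = 0.226). Itgb1, the β partner of the collagen-binding subunits and of several laminin-binding ones, was at 9.94, 9.96 and 10.57, against 10.15, 10.12 and 7.08 on the controls, and differed by -0.13 (95% interval -0.51 to 0.24). Leaving control 3 aside, 9 of the 36 members had groups that did not overlap, against 25.2% of all genes. Of these, 2 members were higher and 7 lower, where 12.8% of all genes were higher and 12.3% lower. Over all 6 arrays these were Itga2, Itgav and Itgax, or 8.33% of members against 11.6% of all genes.

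The promoter windows shown are those of Itga5, the called member whose window begins at the outer start of its gene, of Itgb5, lower on all TGF-β1 arrays than on controls 1 and 2, and of Itga2, the member higher on all TGF-β1 arrays. They run from 250 bases before to 50 bases after the transcript start, from RefSeq on GRCm38.p6, 5′ to 3′ on the strand of the gene, and capitals mark CAGAC, a core bound by Smad proteins, and GGGCGG, a core bound by Sp1, on either strand. The windows are chr15:103366742-103367041 on the minus strand for Itga5, chr16:33829415-33829714 on the plus strand for Itgb5, and chr13:114932051-114932350 on the minus strand for Itga2.
Itga5: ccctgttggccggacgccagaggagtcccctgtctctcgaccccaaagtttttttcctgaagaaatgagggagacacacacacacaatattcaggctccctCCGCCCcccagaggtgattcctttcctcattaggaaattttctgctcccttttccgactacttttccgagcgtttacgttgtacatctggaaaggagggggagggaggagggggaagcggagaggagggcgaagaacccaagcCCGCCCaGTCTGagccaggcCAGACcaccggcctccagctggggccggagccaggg
Itgb5: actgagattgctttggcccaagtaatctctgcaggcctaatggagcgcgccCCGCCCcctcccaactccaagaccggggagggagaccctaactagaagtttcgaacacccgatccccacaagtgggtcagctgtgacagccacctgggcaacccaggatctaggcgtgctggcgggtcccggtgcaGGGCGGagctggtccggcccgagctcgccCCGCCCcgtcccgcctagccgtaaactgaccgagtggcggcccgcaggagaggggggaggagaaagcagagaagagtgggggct
Itga2: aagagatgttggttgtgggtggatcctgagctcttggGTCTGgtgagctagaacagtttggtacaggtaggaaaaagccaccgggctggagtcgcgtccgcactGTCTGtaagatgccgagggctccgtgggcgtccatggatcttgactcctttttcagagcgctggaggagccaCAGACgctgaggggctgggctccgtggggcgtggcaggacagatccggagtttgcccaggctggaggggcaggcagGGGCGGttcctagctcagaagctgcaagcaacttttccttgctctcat

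Itga5 had 2 matches to CAGAC and 2 to GGGCGG, Itgb5 had 0 and 3, and Itga2 had 3 and 1, with no overlap between matches. Neither TGANTCA, the AP-1 core, nor TATAAA was found in these windows on either strand. Of all 32851 windows in the table, 49.6% held CAGAC, 35.7% GGGCGG, 7.81% TGANTCA and 13.6% TATAAA, and of the 25 windows of 22 members 17 held CAGAC, 13 GGGCGG, 3 TGANTCA and 0 TATAAA. A match is a string of letters and shows no binding. The table's window for Itga9 begins inside the gene and is not printed.

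None of the subunits of leukocyte and platelet integrins passed, and Itgad, Itgae, Itgal, Itgam, Itgax and Itgb2 lay below the array median on each of the 5 arrays other than control 3. Itgal, the α subunit of the T cell and leukocyte receptor for ICAM1, was at 5.41, 5.64 and 5.97 on TGF-β1 1 to 3, against 5.63, 6.26 and 6.91 on controls 1 to 3, a difference of -0.58 ± 0.19 (adjusted p = 0.0939). Itgam, the α subunit of macrophages and neutrophils, was at 5.35 and 5.57 on TGF-β1 1 and 2 and at 6.20 on TGF-β1 3, against 5.28, 5.40 and 6.38 on the controls. Itgax, a subunit of dendritic cells, was at 4.83, 4.96 and 4.89, against 5.17, 5.17 and 5.04 on the controls, with a difference of -0.29 ± 0.13 (adjusted p = 0.243). Itgad and Itgae were even below the lower quartile there. Itgb2 differed by 0.20, Itgb7 by -0.07, Itga2b, the platelet α subunit, by -0.07 and its partner Itgb3 by -0.01. The mean of 11 leukocyte markers was 6.27, 6.49 and 7.29 on TGF-β1 1 to 3, against 6.49, 6.97 and 7.05 on controls 1 to 3, and none of them passed. Of these 11 markers 9 were higher on TGF-β1 3 than on TGF-β1 1 and 2, Aif1, a macrophage gene, being at 6.51 there and at 3.36 to 4.18 on all other arrays. The mean of 5 platelet genes was 6.37, 6.35 and 6.74 on TGF-β1 1 to 3, against 6.53, 6.36 and 7.78 on controls 1 to 3, and none of them passed. Pf4 was highest on TGF-β1 3, at 10.28, while Gp9 and Gp6 were lowest there, at 7.82 and 3.98.

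**Figure D4:**
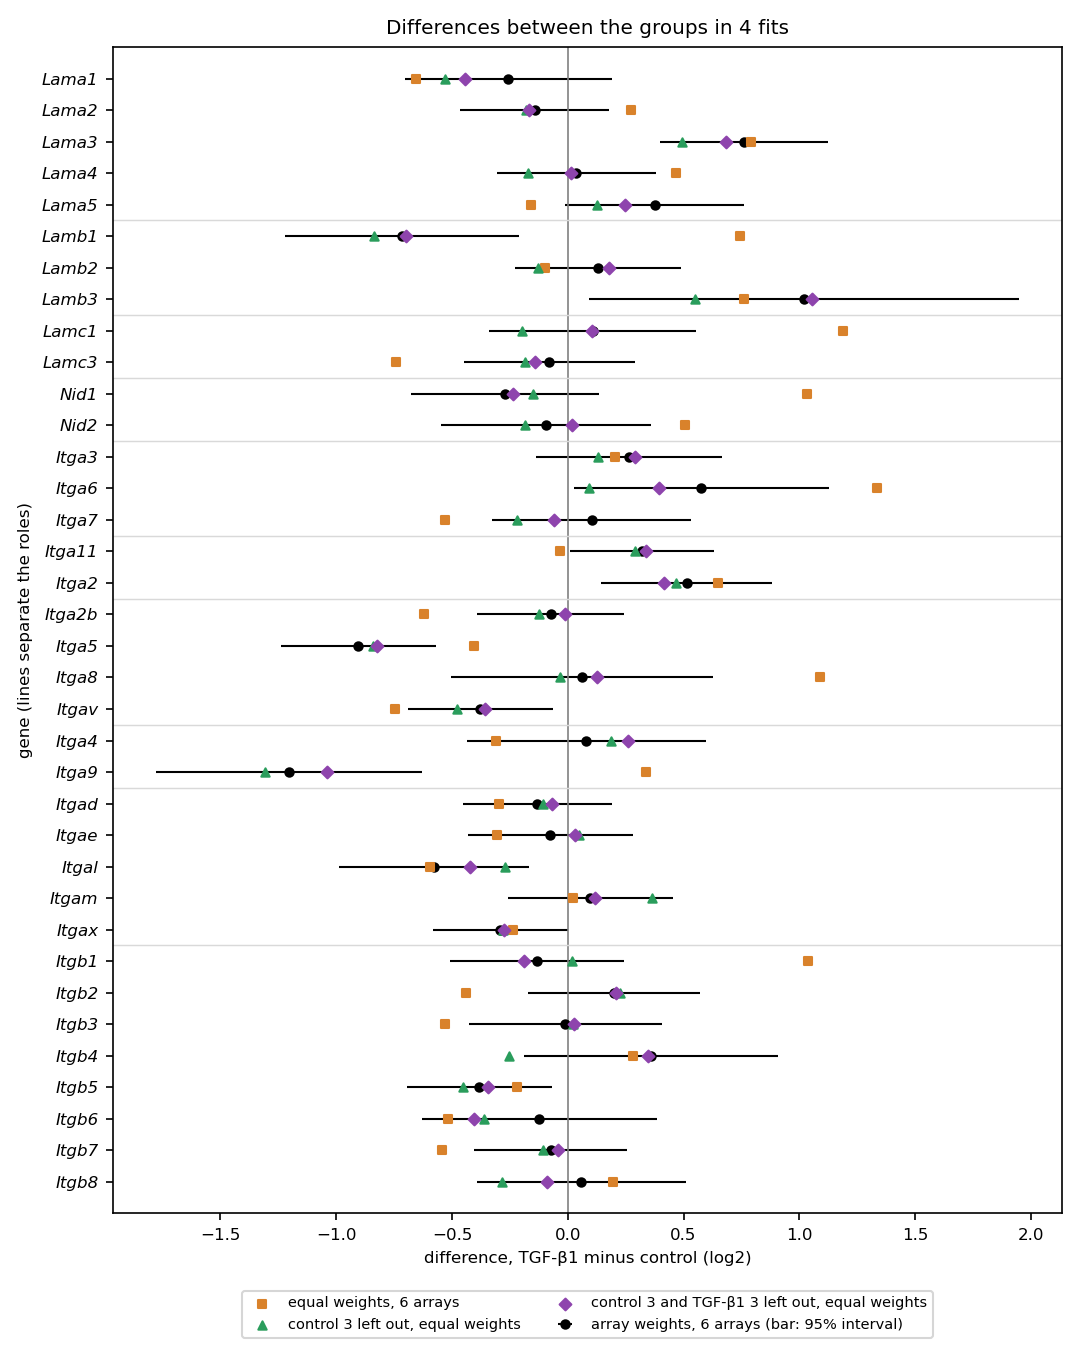
Difference of each of the 36 genes (log2, TGF-β1 minus control) in 4 fits: array weights on 6 arrays with its 95% interval, equal weights on 6 arrays, equal weights without control 3, and equal weights without control 3 and TGF-β1 3. The orange squares, where control 3 has full weight, depart from the others for genes such as Lamb1, Lamc1, Nid1, Itga9 and Itgb1. Lama3, Itga5 and Itga2 keep their sign in all 4, as do other genes such as Itga6, Itgav, Itgb5 and Lamb3.

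Genes that work with these proteins were compared as 5 lists that hold 80 distinct measured genes. In the array-weighted fit 1 of the 80 rose and 10 fell, where 3.45% of all genes rose and 3.44% fell. Of 24 other basement membrane genes 0 rose and 2 fell: Col18a1, a basement membrane collagen, was at 6.43, 6.48 and 7.64 on TGF-β1 1 to 3, against 7.46, 7.31 and 7.36 on controls 1 to 3, and fell by 0.83 ± 0.18, and P3h2, a hydroxylase of collagen IV, fell by 0.77 ± 0.19. Col18a1 on TGF-β1 3 was thus above all controls, and P3h2 was at 7.78 there, between 7.68 and 8.15 on controls 1 and 2. Col4a1, a chain of the main collagen IV network, differed by 0.35 ± 0.19 (adjusted p = 0.343), and Hspg2, which encodes perlecan, by 0.13 ± 0.18.

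Of 8 laminin receptors that are not integrins or that support them, 0 rose and 2 fell, Dst and Sdc1, a syndecan of epithelial cells, the second by 0.72 ± 0.18. Of 16 ligands of integrins outside the basement membrane 0 rose and 3 fell. Fn1, the fibronectin bound by α5β1, was at 10.54, 10.63 and 10.64 on TGF-β1 1 to 3, against 10.97, 11.27 and 12.49 on controls 1 to 3, and fell by 0.62 ± 0.15 (adjusted p = 0.0276); with control 3 and TGF-β1 3 left out its adjusted p was 0.151. Icam1, the ligand of leukocyte integrins, fell by 1.36 ± 0.17. Vcam1, that of α4 integrins, fell by 1.26 ± 0.29, and on TGF-β1 3 Vcam1 was at 7.76, between 6.81 and 7.86 on controls 1 and 2. Tgfb1 differed by -0.39 ± 0.20 (adjusted p = 0.293).

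Of 25 adaptors that activate integrins or link them to actin, 1 rose and 0 fell. Fermt1, the kindlin of epithelial cells that binds integrin β tails, was at 9.27, 9.45 and 10.05 on TGF-β1 1 to 3, against 9.04, 8.58 and 8.08 on controls 1 to 3, and rose by 0.67 ± 0.17 (adjusted p = 0.0406), with an adjusted p of 0.203 once control 3 and TGF-β1 3 were left out. Of 7 proteases that process or cleave matrix and integrins, 0 rose and 3 fell. Mmp2, a gelatinase, fell by 1.70 ± 0.20, its membrane-bound activator Mmp14 by 1.11 ± 0.15, and Pcsk5, a proprotein convertase, by 0.79 ± 0.18. No partner gene passed with control 1, control 2, TGF-β1 1 or TGF-β1 2 left out. Of all 19505 genes only 0, 0, 8 and 12 passed in these fits, so this is not particular to the partner genes. Once control 3 and TGF-β1 3 were both removed, with equal weights, 5 of the 11 called partner genes also passed, namely Col18a1, Dst, Icam1, Mmp2 and Mmp14.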

How the data were processed

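Transcripts were measured on 6 Affymetrix arrays, 3 per group, with groups taken from the titles. The authors deposited log2 values per probe set, computed by RMA (background correction, normalization between arrays, 1 value per probe set) according to the submitters' processing notes; neither its version nor a genome build is given in the sources used here. No further scaling was applied. Of 22206 probe sets, 19572 had 1 gene symbol and 2634 were unnamed here; the probe set with the highest mean stood for a gene, giving 19505 genes. Precision is limited by the number of arrays.

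Differences were tested in R 4.3.3 with limma 3.58.1 (lmFit, eBayes, two-sided), with the group as the only term and weights from arrayWeights. The estimation of the weights stopped before its convergence tolerance, and weights are treated as known, which makes p-values too small. Intervals are limma's 95% intervals. Pairing of the arrays by replicate number was not seen: the correlation of deviations from the group means between arrays of the same number was -0.07, -0.01 and -0.05. This check cannot decide the question, since control 3 entered the control mean and so governed the deviations of all 3 controls.

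The members, the lists, and the choice of the array-weighted fit over equal weights were made with earlier results of these data known. Given per array by rule were called members, members whose TGF-β1 arrays did not overlap controls 1 and 2, and the brightest probe set of each role, a choice of examples that ranks no gene. Of the partner lists, called members and Fn1, Tgfb1, Hspg2 and Col4a1 were named. Lama1, Lamb3, Itgb4, Itgb6, Itga8, Itgam, Itgb2 and the partial values of other members were chosen after their values were seen. So were Col17a1, Trp63, Krt17, Aif1, the platelet genes and the grouping of the hemidesmosome chains. The array values of Acta2, Cnn1, Twist1 and P3h2 were also chosen in that way. Alternatives were equal weights, arrays left out, the replicate number as a block, quantile normalization, median centring, a filter on dim genes, the mean of probe sets, another prior and a stricter threshold. Promoter windows are RefSeq's.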

Additional observations from a re-analysis of the deposited data

How the results depend on the processing

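With array weights 1 member rose and 2 fell. These counts were 0 and 0 with equal weights, with equal weights without control 3, without control 3 and TGF-β1 3, and with median centring, and 0 and 1 with quantile normalization (Itga5) and at an adjusted p under 0.01 (Itga5). They were 1 and 2 with the mean of probe sets and with a trended and robust prior, 7 and 7 with a filter on dim genes (4354 of 13004 genes called), and 3 and 4 with the replicate block. For the partner genes, 1 risen and 10 fallen, they were 0 and 0 with equal weights on 6 or 5 arrays, 0 and 5 without control 3 and TGF-β1 3, 0 and 4 with quantile normalization, median centring and at an adjusted p under 0.01, 2 and 10 with the mean of probe sets, 2 and 8 with the other prior, 16 and 23 with the dim filter, and 8 and 14 with the replicate block. Of all 19505 genes, 672 were called higher and 670 lower with array weights. These totals were 241 and 245 with quantile normalization, 128 and 137 with median centring, and 262 and 276 at an adjusted p under 0.01. With the mean of probe sets they were 708 and 713, with the other prior 711 and 743, and with the replicate block 1221 and 1281. Member and partner counts are to be read beside these totals. Pairing by replicate number was not shown, so the block values describe the setting and no pairing.

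Leaving out 1 array at a time, the members risen were 0 and the members fallen 0 to 2, and the partners risen 0 and fallen 0 to 4. Without control 1, control 2, TGF-β1 1 or TGF-β1 2 no member passed, where 0, 0, 8 and 12 of all 19505 genes passed. Without TGF-β1 3, where the control level was mainly that of control 1, Lama1 did and the 3 called members did not.

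Many differences changed sign, and the value after the change follows each gene. Equal weights on 6 arrays turned Itga9 (0.34), Itgb1 (1.04), Lama2 (0.27), Lamb1 (0.74), Nid1 (1.03), Nid2 (0.51), P3h2 (0.47), Tgfb1 (0.27) and Vcam1 (0.0157) positive. Equal weights on 6 arrays turned Itga11 (-0.0328), Itga4 (-0.31), Itga7 (-0.53), Itgb2 (-0.44), Lama5 (-0.16), Lamb2 (-0.0994) and Col4a1 (-0.42) negative. Equal weights without control 3 turned Itgae (0.0463), Itgb1 (0.0168), Itgb3 (0.022) and Tgfb1 (0.0103) positive. Equal weights without control 3 turned Itga7 (-0.22), Itga8 (-0.0356), Itgb4 (-0.25), Itgb8 (-0.28), Lama4 (-0.17), Lamb2 (-0.13), Lamc1 (-0.20), Col4a1 (-0.0552) and Hspg2 (-0.0494) negative. Leaving out control 3 and TGF-β1 3 turned Itgae (0.0301), Itgb3 (0.0276) and Nid2 (0.0201) positive. Leaving out control 3 and TGF-β1 3 turned Itga7 (-0.0591) and Itgb8 (-0.0878) negative. Median centring turned Itgad (0.0198), Itgae (0.0098), Itgb3 (0.18), Itgb7 (0.0107) and Nid2 (0.22) positive. Median centring turned Itga7 (-0.24), Itga8 (-0.0647), Itgb8 (-0.32) and Lama4 (-0.0528) negative. Quantile normalization turned Itgb3 (0.0688) and Nid2 (0.0595) positive. Quantile normalization turned Itga7 (-0.0716), Itgb8 (-0.10) and Lama4 (-0.0216) negative. The dim filter turned Itgb6 (0.13) positive. The dim filter turned Itga4 (-0.0434) negative. The replicate block turned Itgae (0.0663) positive.

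With 1 array left out at a time, the ranges were Col4a1 -0.48 to 0.28, Hspg2 -0.0251 to 0.90, Itga11 -0.21 to 0.30, Itga2b -0.81 to 0.0369, Itga3 -0.24 to 0.38, Itga4 -0.65 to 0.42 and Itga6 -0.45 to 2.44. For the next genes they were Itga7 -0.71 to -0.0421, Itga8 -0.45 to 1.74, Itga9 -1.48 to 1.32, Itgad -0.42 to 0.0835, Itgae -0.60 to 0.24, Itgal -1.07 to 0.15 and Itgam -0.41 to 0.59. Further ranges were Itgb1 -0.16 to 1.38, Itgb2 -0.90 to 0.19, Itgb3 -0.84 to 0.33, Itgb4 -0.85 to 1.16, Itgb7 -0.73 to 0.0355, Itgb8 -0.77 to 0.78 and Lama2 -0.20 to 0.56. The others were Lama4 -0.34 to 0.99, Lama5 -0.26 to 0.28, Lamb1 -0.77 to 1.80, Lamb2 -0.28 to 0.21, Lamb3 -0.65 to 1.36, Lamc1 -0.38 to 2.17 and Mmp14 -1.09 to 0.20. The rest were Nid1 -0.21 to 1.65, Nid2 -0.0454 to 1.22, P3h2 -0.68 to 0.93, Pcsk5 -0.70 to 0.0675, Sdc1 -0.58 to 0.16, Tgfb1 -0.27 to 0.49 and Vcam1 -1.03 to 0.27. The sign turned for 6 to 21 of the 36 members in these fits. It turned for none with the mean of probe sets or the other prior, but these settings cannot test the sign. Each member has 1 probe set, so its values stay the same, and the prior does not enter the estimate of the difference. The cause of the sign changes was not tested.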
